A study of Mus musculus with 24 samples.

Results

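The genes described here are the numbered zinc finger protein genes (names made of Zfp and a number) that were expressed in mouse blood. Members were chosen by measured brightness: at least 1 probe of the gene had to be called well above background in every one of the 24 mice. Of the 349 such gene names on the array, 135 met this rule, among 18729 genes of any kind that remained after dim probes were dropped. The signals were log2 intensities minus the median of each array, so every level below is in log2 units relative to the middle spot of its own array, and every difference is a log2 difference between groups.

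Whole blood was taken by cardiac puncture from 24 male C57BL/6J mice in 4 groups of 6. Young mice were 2 months old and old mice were 21 months old, and mice of each age were either sham-irradiated (0 Gy, called unirradiated) or given 4 Gy of x-rays to the whole body, with blood drawn 24 h later. All groups went through the same PAXgene lysis and, by the study's methods, removal of globin RNA before labelling with Cy3, and each mouse was hybridized to 1 array. The design allows 4 comparisons, which are irradiated with unirradiated mice within each age and old with young mice within each treatment, plus a test of whether the response differed between the ages.

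Most genes with these names encode proteins with C2H2 zinc fingers, small domains folded around a zinc ion that together read a stretch of DNA and in some proteins bind RNA. Many also carry a KRAB domain, which recruits the co-repressor Trim28 and, through it, histone methylation and heterochromatin proteins that silence retroelements and imprinted loci. Others have unrelated tasks, such as ribosome assembly or RNA processing. In blood the best known is Zfp318, a nuclear protein that mature B cells need to express IgD from the heavy chain transcript.

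The members were read through 60-base probes, and the first 30 bases are shown for a few whose values are given below. They are written with C in capitals, since the number of C bases in the whole 60-base probe moved with some of the differences given further on. The stretches shown do not stand for that number. They hold 12 of the 13 C of the Zfp318 probe, but 6 of 17 for Zfp940 and 5 of 16 for Zfp11. Positions are of the whole probe in mm9, as deposited.

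Zfp318, chr17:46551614-46551673, plus strand: CtCCttaCCCaaCttattaCCaCCataCtg
Zfp1, chr8:114194523-114194582, plus strand: gaagCCCtCatgaagatgCtgaaggaaCtt
Zfp664, chr5:125368865-125368924, plus strand: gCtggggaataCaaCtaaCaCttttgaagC
Zfp664, second probe, chr5:125365082-125365141, plus strand: aCaaatCCaagCtaCttCtCtCtggaagat
Zfp646, chr7:135024725-135024784, plus strand: tCCtgtgtCCtgaCatCaCttgtaCagata
Zfp646, second probe, chr7:135029191-135029250, plus strand: ttCCCCCaagaagggCatgaggtagtCttC
Zfp940, chr7:30618640-30618699, minus strand: ataaagatgagCtagatttgCttaCCtCtC
Zfp11, chr5:130162355-130162414, minus strand: taaggaatgtggCaaggCCtttattaCttC
Zfp648, chr1:156052745-156052804, plus strand: CatCaagCCaagCatgaCaCCtgCaagaag
Zfp950, chr19:61194131-61194190, minus strand: ttCaagCttaCatgCtggCtttCtgttaCa

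The arrays were not alike in quality. Median signals ran from 8.66 to 44.8, and the lowest 2 were old irradiated replicates 4 and 6, which differed from the other 4 arrays of their group by a robust SD of 1.46 to 1.68 over 13722 probes, against 0.263 to 0.784 for the other pairs of that group and 0.147 to 0.972 in the other groups. All young arrays were scanned on one day and all old arrays on another, so age and scan day cannot be told apart. Of the 6 slides, 1 per age held both treatments (2 unirradiated and 2 irradiated mice). Hepatocyte transcripts, which are foreign to blood, were high in young irradiated replicates 2, 4 and 5 and old irradiated replicates 2, 3 and 5, with summed levels of 83.0 to 224 times that of the median young unirradiated mouse. Markers of several blood cell types moved with irradiation, as given beside the results, and in whole blood fewer cells of a type and less RNA per cell cannot be told apart.

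The detection rule favoured genes that stayed bright after irradiation. A further 21 Zfp genes were well above background on 23 of the 24 arrays, among them Zfp7, Zfp51, Zfp62, Zfp90 and Zfp143. The missing array was old irradiated replicate 4 or 6 for 16 of these and a young irradiated array for the other 5. The mean level was 1.28 for the dimmest member, Zfp937, and ran from 0.33 to 3.02 for the genes just outside the rule. None of the 135 members was saturated on any array.

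Irradiation lowered many more of these genes than it raised, in young and in old mice. Of the 135 members, 122 varied enough across the arrays to be tested (the others stayed within 1.5-fold of their median on most arrays). In young mice 51 fell and 3 rose, 44.3% in all where 35.8% of all genes tested and 42.6% of those detected on all arrays passed (limma's moderated test, p under 0.005 and Benjamini-Hochberg adjusted p under 0.05 over all 17464 genes tested). Of all genes tested in young mice, 21.4% fell and 14.4% rose, and of the tested genes that were detected on all arrays 24.6% fell and 17.9% rose, against 41.8% and 2.46% of the members. In old mice 43 members fell and 3 rose, 37.7% in all beside 25.0% of all genes and 26.6% of detected genes. Those that fell and rose made up 35.2% and 2.46%, where 17.4% of all genes tested fell and 7.6% rose and the shares among genes detected on all arrays were 18.2% and 8.31%. Every irradiated mouse was below every unirradiated one for 40 members in young mice (15.4% of all genes tested) and 46 in old mice (16.8%), and above for 1 (9.59%) and 2 (5.93%).

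The shift was general among the members and not carried by a few. Over the 135 members the median difference was -0.45 at the young age and -0.82 at the old age, while that of the 11353 genes detected on all arrays was -0.17 and -0.29. The difference was below 0 for 111 members in young mice and for 110 in old mice. In single young irradiated mice 77.8% to 88.9% of the members lay below their median in unirradiated mice of that age, beside 52.7% to 64.3% of the detected genes. In single old irradiated mice these shares were 69.6% to 87.4% and 50.8% to 71.5%. Mouse by mouse, the median of the members lay 0.51 to 0.69 below that of the detected genes in young unirradiated mice and 0.82 to 1.19 below it in young irradiated mice. In old mice it lay 0.50 to 0.74 below without irradiation and 0.78 to 1.37 below with it. The groups did not overlap at either age, and the 2 lowest arrays were old irradiated replicates 4 and 6.

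**Figure D1:**
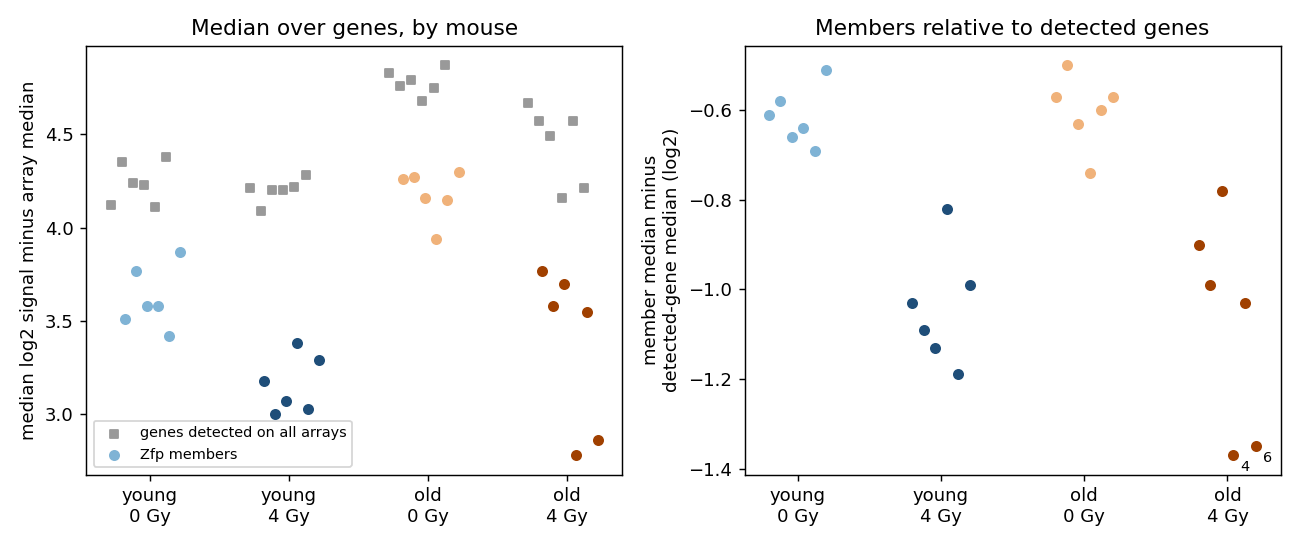
Median level per mouse of the 135 Zfp members and of the 11353 genes detected on all arrays (left, log2 signal minus array median) and the difference between them (right, log2), for the 4 groups of 6 mice. Each point is 1 mouse. In each age the irradiated mice lie below the unirradiated ones on the right, with old irradiated replicates 4 and 6 lowest at -1.37 and -1.35.

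The size of the shift in old mice depended on those arrays. Without old irradiated replicates 4 and 6 the median of the members was -0.50 and that of the detected genes -0.28, a gap of -0.23 in place of -0.52, while 47 members fell and 3 rose. On the 1 slide of each age that held both treatments, 2 irradiated mice against 2 unirradiated ones gave a median of -0.51 in young and -0.46 in old mice, with detected genes at -0.23 and -0.15. With the slide as a block, 15 members fell and 1 rose in young mice and 1 fell and 1 rose in old mice. The share of all genes that passed in the fits of this paragraph is not given here.

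Many of the members that fell did so at both ages. Of the 51 that fell in young mice and the 43 that fell in old mice, 31 were shared, which is 60.8% of the first list and 72.1% of the second, and all 3 that rose were the same. The same shares were 47.5% and 58.3% for all genes tested that fell, and 43.1% and 58.2% for those detected on all arrays. Over all genes tested, 10.2% fell in both ages and 5.26% rose in both, and over the tested genes detected on all arrays 10.6% and 6.92%. Of the 51 that fell in young mice, 48 were below 0 in old mice, and all 43 that fell in old mice were below 0 in young mice. Of the 31, 30 had the larger fall in old mice, and 23 had it without old irradiated replicates 4 and 6. In the deposited log2 table it was 21 of the 30 with values. The median over the members in that table was -0.60 at the old age and -0.66 at the young age, so the order of the ages turned. With arrays scaled to their 75th percentile the median over all members was -0.52 at the old age and -0.44 at the young age. The difference between the ages was tested for each gene as an interaction and passed for 0 of the 122 members and 0 of the 17464 genes (limma, with an unadjusted p under 0.05 for 28 members and for 23.6% of all genes).

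**Figure D2:**
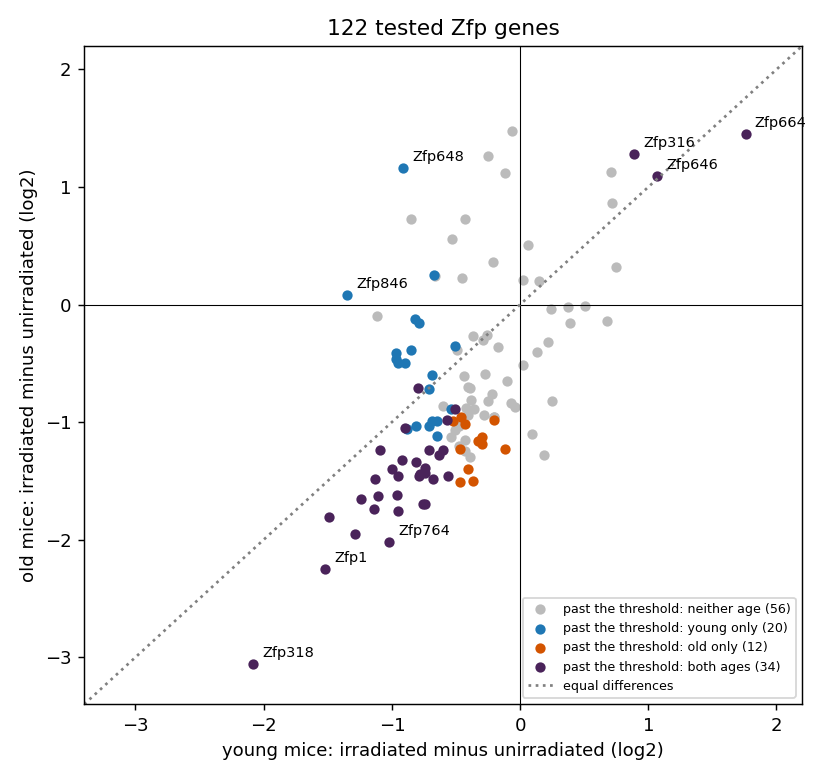
Difference between irradiated and unirradiated mice for the 122 tested members, in young mice (horizontal axis, log2) and old mice (vertical axis, log2), coloured by whether the gene passed the threshold in both ages (34), young mice only (20), old mice only (12) or neither (56). Most points lie in the lower left and below the dotted line of equal differences (30 of the 31 that fell at both ages, and 23 of them without old irradiated replicates 4 and 6). Zfp664, Zfp316 and Zfp646 are the only points in the upper right that passed the threshold. Zfp691 (0.71 and 1.13) and Zfp663 (0.72 and 0.86) also lie there without passing.

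Zfp318 fell most at both ages. In young unirradiated mice its level was 4.00 at the lowest, 4.33 at the median and 4.61 at the highest, and in young irradiated mice 2.01, 2.25 and 2.52. In old unirradiated mice it was 4.56, 5.30 and 5.58 and in old irradiated mice 1.25, 2.31 and 2.94. Every irradiated mouse was below every unirradiated mouse of its age. The fall was 2.08 on the log2 scale (SE 0.146, 4.24-fold, adjusted p = 9.22e-07) in young mice and 3.06 (SE 0.339, 8.34-fold, adjusted p = 0.000172) in old mice by limma. Zfp318 was the only member that fell past the threshold at both ages with the slide as a block, with differences of -2.09 (adjusted p = 0.00374) and -3.12 (adjusted p = 0.0327). The irradiated mice of the 2 ages overlapped, and the interaction of -0.98 did not pass (adjusted p = 0.144).

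B cell markers moved with it. Summed over 14 markers in the table (Cd79a, Ms4a1 and others), their level was 0.869 to 1.08 times the young unirradiated median in young unirradiated mice and 0.119 to 0.309 in young irradiated mice. It was 0.993 to 1.98 in old unirradiated and 0.0479 to 0.473 in old irradiated mice. Of these markers 13 fell in young mice and 12 in old mice, and all 14 were well above background on every unirradiated array. The summed T cell markers went from 0.722 to 1.10 down to 0.325 to 0.763 in young mice, but ranged from 0.709 to 2.37 in old unirradiated and 0.546 to 1.19 in old irradiated mice. Only 1 of 16 T cell markers fell past the threshold in old mice, against 12 in young mice. Some other cell types moved the opposite way. All 10 platelet markers rose at both ages, with medians of 1.85 and 1.83, and in young mice 5 of 9 NK cell and 7 of 14 neutrophil markers rose, with 0 of each in old mice. Monocyte and red cell markers were mixed. Of 9 monocyte markers 3 rose and 1 fell in young mice, and 1 rose and 3 fell in old mice. Of 10 red cell markers 2 rose and 4 fell in young mice, and 1 rose and 0 fell in old mice. Among all genes tested 14.4% rose and 21.4% fell in young mice, and 7.6% and 17.4% in old mice. The part of these cell types in the fall of Zfp318 or of the other members was not tested.

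Zfp1, a C2H2 protein, had the next largest fall at both ages. Its level was 4.25, 4.60 and 4.84 (lowest, median, highest) in young unirradiated mice and 2.52, 3.03 and 3.38 in young irradiated mice. In old mice the values were 4.77, 5.83 and 6.11 without irradiation and 2.60, 3.72 and 4.01 with it. Neither age had an overlap between its groups, and the fall was 1.52 on the log2 scale (SE 0.169, adjusted p = 2.53e-05) in young and 2.25 (SE 0.337, adjusted p = 0.000709) in old mice by limma. With the slide as a block the fall passed in young mice (adjusted p = 0.0236) and not in old mice (-1.95, adjusted p = 0.113).

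Zfp82 and Zfp566 were also among the 6 largest falls at both ages. Zfp82 fell by 1.49 (adjusted p = 3.3e-05) in young and by 1.81 (adjusted p = 0.00153) in old mice, and Zfp566 by 1.29 (adjusted p = 8.52e-05) and 1.95 (adjusted p = 0.00229), all by limma. Both genes lie in a run of neighbouring members on chromosome 7. In young mice the list was completed by Zfp846 (-1.35) and Zfp472 (-1.24), and in old mice by Zfp764 (-2.02, with a level of 4.64 to 5.68 without and 2.28 to 4.05 with irradiation) and Zfp653 (-1.76). The treated and untreated ranges were separate for each of these 6 genes in the age where it was listed.

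Only 3 members rose past the threshold, and they did so at both ages. With the slide as a block Zfp664 alone rose past it, and Zfp646 and Zfp316 passed at neither age. Zfp664 was at 4.71, 5.09 and 5.60 (lowest, median, highest) in young unirradiated mice and at 5.39, 7.11 and 7.44 in young irradiated mice. In old mice it was at 5.71, 6.06 and 6.20 without and 6.82, 7.44 and 8.10 with irradiation. The old groups did not overlap, whereas young irradiated replicate 4, at 5.39, was within the range of the young unirradiated mice. The rise was 1.76 (SE 0.32, 3.39-fold, adjusted p = 0.000709) in young and 1.45 (SE 0.26, 2.73-fold, adjusted p = 0.00177) in old mice by limma, and it passed at both ages with the slide as a block (2.15 with adjusted p = 0.0417, and 1.82 with adjusted p = 0.0454). The second detected probe of Zfp664, printed above, rose by 1.65 and 1.22.

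Zfp646 was at 8.35 to 8.94 in young unirradiated and 9.03 to 10.10 in young irradiated mice. In old mice it was at 9.10 to 9.91 and 10.15 to 10.82. Neither pair of groups overlapped, and the rise was 1.07 (SE 0.185, adjusted p = 0.000501) in young and 1.09 (SE 0.23, adjusted p = 0.00384) in old mice by limma. This came from the brighter of its 2 detected probes, and the other, printed above, moved the opposite way, by -0.67 in young and -1.25 in old mice. The 2 probes name different transcript records and lie at separate places in mm9, so the direction for Zfp646 rests on which probe is read.

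Zfp316, the third, was at 4.79 to 5.61 and 5.31 to 6.86 in young mice and at 5.39 to 6.44 and 6.30 to 7.68 in old mice, with an overlap of the groups at both ages. Its rise was 0.89 (SE 0.248, adjusted p = 0.0101) in young and 1.28 (SE 0.299, adjusted p = 0.00619) in old mice by limma. Averaged over all its probes, the rise was 0.38 and 0.65 and did not pass at either age (adjusted p = 0.193 and 0.16).

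**Figure D3:**
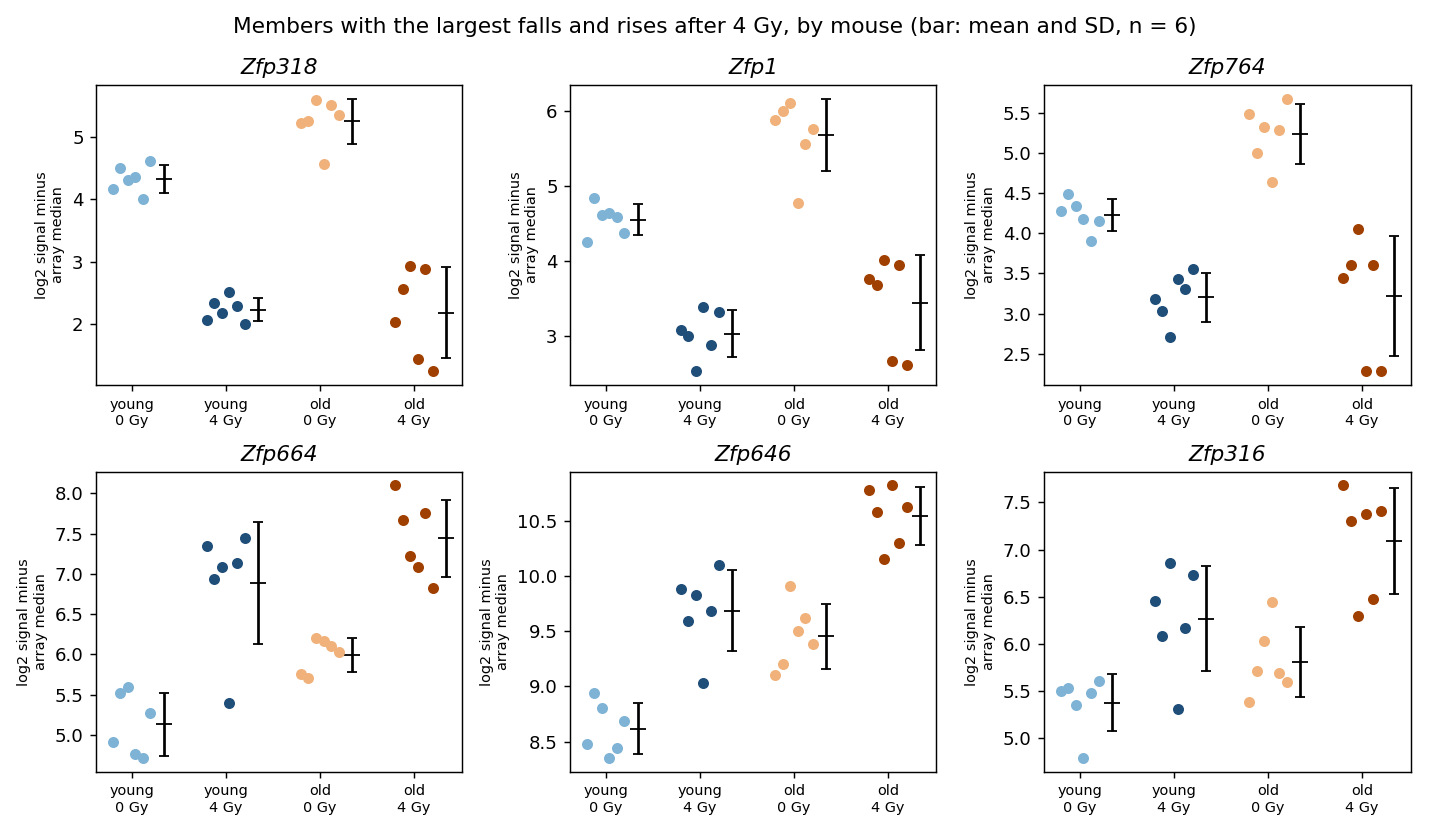
Level of Zfp318, Zfp1, Zfp764, Zfp664, Zfp646 and Zfp316 in each mouse (log2 signal minus array median) in the 4 groups of 6; points are mice, the black bar is the mean with its SD. Zfp318 and Zfp1 drop in every irradiated mouse, Zfp664 rises in all but young irradiated replicate 4 (5.39), and the axes differ between panels.

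Among the members with 2 or more detected probes, 21 in all, the probes had the same sign for 16 in young mice and for 16 in old mice. The exceptions in young mice were Zfp467, Zfp644, Zfp646, Zfp655 and Zfp975, and in old mice Zfp628, Zfp646, Zfp655, Zfp787 and Zfp975. For Zfp644 both probes were near 0 in young mice (0.01 and -0.06), while for Zfp655 they were at -0.35 and 0.53. Zfp975 parted as widely as Zfp646, with -0.47 and -1.23 (young and old) at the probe used here and 1.59 and 1.34 at the other, at chr7:49915479-49915538 and chr7:49915689-49915747.

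Zfp975, probe used: aCaCtttCtgagCCttCtttgtCtaCCtCa
Zfp975, second probe: taaagggCtgCaatatatgtgCCgCCaCta

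Zfp proteins of RNA and ribosome biology gave 7 tested members, of which 3 fell in young and 4 in old mice, and none rose, where 41.8% and 35.2% of all tested members fell. Zfp593, needed for the large ribosomal subunit, fell by 0.74 (adjusted p = 0.000495) and 1.70 (adjusted p = 0.00314), and Zfp622, which also acts in the maturation of that subunit, by 0.60 (adjusted p = 0.00501) and 1.24 (adjusted p = 0.0112) by limma. Zfp330, a nucleolar protein, fell in old mice by 1.16 (adjusted p = 0.0146) and was at -0.33 in young mice. Zfp318 is the fourth on this list. Zfp638, an RNA-binding protein, was at -0.43 and -1.25 without passing, and Zfp207, which binds the spindle checkpoint protein Bub3, and Zfp106, an RNA-binding protein, were at 0.02 and 0.13 in young mice and at -0.51 and -0.40 in old mice.

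Of 5 tested silencers of retroelements and imprinted genes, 2 fell in young and 2 in old mice, near the share of all members. Zfp57, a KRAB protein that keeps methylation at imprinted loci, fell by 0.97 in young mice (adjusted p = 0.000577) and was at -0.46 in old mice (adjusted p = 0.297). Zfp809, which silences proviruses, was at -0.30 in young mice and fell by 1.19 in old mice (adjusted p = 0.0159). Zfp932, a KRAB protein of endogenous retroviruses, fell at both ages, by 1.14 (adjusted p = 0.000122) and 1.74 (adjusted p = 0.000719), while Zfp445, another keeper of imprints, was at -0.39 and -1.30 and Zfp961 at 0.15 and 0.20 without passing by limma.

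Of the general promoter and chromatin factors, 1 of 7 tested members fell in young and 2 in old mice, where 21.4% and 17.4% of all genes tested and 41.8% and 35.2% of all tested members fell. Zfp292, a DNA-binding protein of many fingers, fell by 1.13 (adjusted p = 0.00013) and 1.48 (adjusted p = 0.0106), and Zfp410, the activator of the chromatin remodeller Chd4, was at -0.46 in young mice and fell by 0.96 in old mice (adjusted p = 0.0167) by limma. Zfp131, Zfp148 (a GC-box binding factor) and Zfp217 (a partner of CtBP and Lsd1) were at -0.41 to -0.42 in young mice and -0.70 to -0.94 in old mice without passing. Zfp281, a repressor in stem cells, was at 0.51 and -0.01, and Zfp609 at -0.66 and 0.24. Zfp644, the eighth member on this list, was not tested. Zfp668, a p53-related DNA repair factor and the only member on its list, fell by 0.51 (adjusted p = 0.00619) and 0.89 (adjusted p = 0.013).

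The partners of KRAB zinc finger proteins are not members. Of 30 tested genes of the co-repressor machinery, 16 fell in young and 15 in old mice and none rose, where 21.4% and 17.4% of all genes tested and 24.6% and 18.2% of detected genes fell. The medians were -0.59 and -1.09, beside -0.17 and -0.29 over the detected genes. Ehmt2 and Daxx were at 0.05 and 0.06 in young mice. Trim28, the protein KRAB domains bind, fell by 0.88 (adjusted p = 0.000184) in young and 1.46 (adjusted p = 0.00136) in old mice by limma. Mphosph8 of the HUSH silencing complex fell by 0.89 and 1.44, and the histone-binding protein Rbbp7 by 0.70 and 1.46. Mta2 of the NuRD complex fell by 0.55 and 1.27, the heterochromatin protein gene Cbx1 by 0.63 and 1.30, and the remodeller Smarcad1 by 0.79 and 1.56. In all, 7 of these genes fell at both ages.

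The AU-rich element decay machinery, which the zinc finger proteins of the Zfp36 family recruit to short-lived mRNAs, had 10 of 23 tested genes fall in young and 7 in old mice, and none rise. Of all genes tested 21.4% and 17.4% fell. The median differences were -0.43 and -0.91, beside -0.17 and -0.29 over the detected genes. Those that fell at both ages were Edc4 (-0.67 and -1.26) and Dcp1a (-0.82 and -1.24), both of the decapping complex, and Cnot2 (-0.69 and -1.09) and Cnot10 (-0.46 and -0.77) of the CCR4-NOT deadenylase.

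Many Zfp genes lie side by side in the genome. By the gene order of RefSeq (GRCm38.p6), in which all 135 members were found, 47 members lay in 10 runs of 3 or more with at most 10 protein-coding genes from one member to the next. No member of any run rose past the threshold at either age, where only 2.46% of all tested members rose at each age. Among all tested members 41.8% fell in young and 35.2% in old mice, and among all genes tested 21.4% and 17.4%. The longest run, on chromosome 17, held Zfp53, Zfp52, Zfp995, Zfp943, Zfp947, Zfp944, Zfp758 and Zfp946, and 3 of its 7 tested members fell in young and 3 in old mice, with median differences of -0.32 and -0.92. The run of Zfp976, Zfp975 and Zfp936 on chromosome 7 had 1 fall in young and 3 in old mice. The other detected probe of Zfp975 rose by 1.59 in young and 1.34 in old mice. The run of Zfp628, Zfp579, Zfp524, Zfp865 and Zfp580, also on chromosome 7, had 3 and 0. Some other runs had equal counts at the 2 ages, such as 3 and 3 from Zfp790 to Zfp146 and 2 and 2 from Zfp930 to Zfp866.

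How many members differed between old and young unirradiated mice, and in which direction, depended on how the arrays were scaled. With the array median as the scale, 87 members were higher and 8 lower in old mice, or 71.3% and 6.56% (77.9% in all, beside 63.8% of all genes and 72.9% of detected genes), where 48.3% of all genes tested were higher and 15.5% lower, and 61.9% and 11.1% of tested genes detected on all arrays. The median difference was 0.71 for the members and 0.70 for all detected genes, so the members moved with the detected genes to within 0.01. When the 75th percentile was the scale, 4 were higher and 16 lower of 81 tested. The counts were 2 and 17 of 73 with the median of detected probes, 8 and 16 of 92 after quantile normalization and 2 and 18 of 119 in the deposited log2 table. Of all genes tested, 10.6% were higher and 27.2% lower with the 75th percentile, and 7.56% and 29.0% with the median of detected probes. The shares of all genes were 16.1% and 21.8% after quantile normalization and 4.44% and 21.5% in the deposited table.

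**Figure D4:**
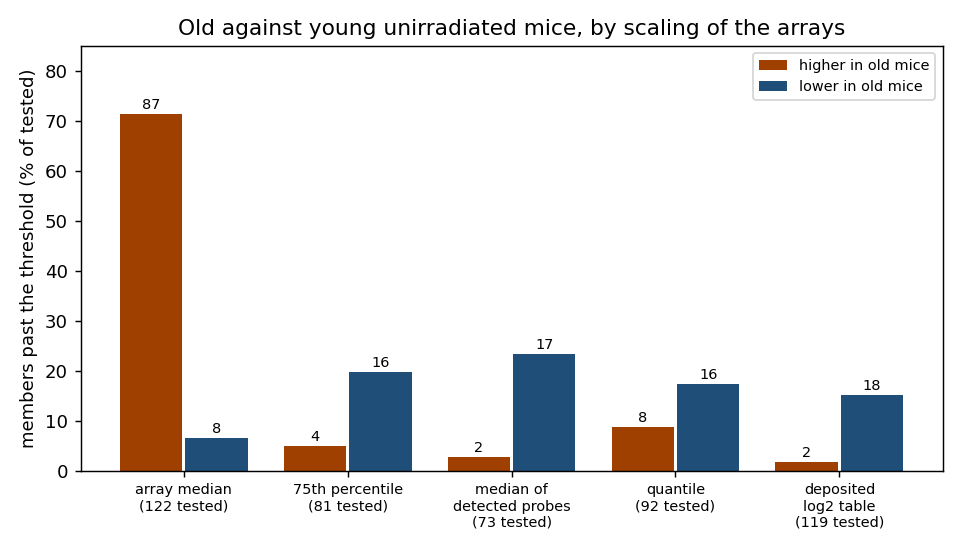
Share of tested members that were higher or lower in old than in young unirradiated mice past the threshold (vertical axis, % of tested), under 5 scalings of the arrays, with the number of members above each bar. With the array median 87 are higher and 8 lower, and under each of the other 4 more members are lower than higher. The same holds for all genes tested under those 4, of which 21.5% to 29.0% were lower and 4.44% to 16.1% higher.

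On the array-median scale, the 8 members that were lower in old mice made up 6.56% of those tested, beside 11.1% of detected genes. With the median of detected probes as the scale 17 were lower, so these 8 are not all that were low relative to detected genes. Zfp940 was at 6.03, 6.25 and 6.58 (lowest, median, highest) in young unirradiated mice and at 2.48, 2.68 and 3.72 in old unirradiated mice, without overlap, a difference of -3.32 (SE 0.23, 9.99-fold, adjusted p = 4.73e-07) by limma. Zfp11 was at 3.55, 3.96 and 4.18 against 0.44, 1.20 and 2.09, a difference of -2.64 (SE 0.241, 6.21-fold, adjusted p = 2.67e-06). The other lower members were Zfp367 (-1.53), Zfp648 (-1.45), Zfp846 (-1.23), Zfp574 (-1.22), Zfp703, a co-repressor of the NET family (-1.12), and Zfp282, a repressor first found on a viral promoter (-0.80). For all 8 the groups did not overlap, where 11.3% of all genes tested were lower in old mice without overlap, and a further 66 members (37.4% of all genes) were higher without overlap. The 6 largest of the 8 differences passed under each of the 4 other scalings named above, with Zfp940 at -3.84 to -4.14 and Zfp11 at -2.98 to -3.22. Zfp367 did not pass when all its probes were averaged (-0.39, adjusted p = 0.0263).

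The old irradiated arrays split on these same 8 genes. For Zfp940 the levels in replicates 4 and 6 were 6.65 and 7.34, and those of the remaining 4 arrays ran from 1.72 to 3.48. For Zfp11 they were 3.73 to 4.53 and 0.18 to 1.46. Both replicates lay above all 4 others for each of the 8. Spearman's rho over the detected genes, between the C count of the probe and an array's deviation from the median of all arrays, was 0.28 and 0.30 in these replicates, 0.05 to 0.28 in young unirradiated mice, -0.31 to -0.13 in old unirradiated mice and -0.27 to -0.14 in the other old irradiated mice. Whether labelling, RNA quality or an exchange of samples sets these 2 arrays apart was not tested, and each value for old irradiated mice includes them unless said otherwise. Over the 135 members they lay above the 4 others for 28 genes and below them for 91. The rest of the old mice, irradiated or not, stayed below the young unirradiated range for Zfp940 and Zfp11.

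**Figure D5:**
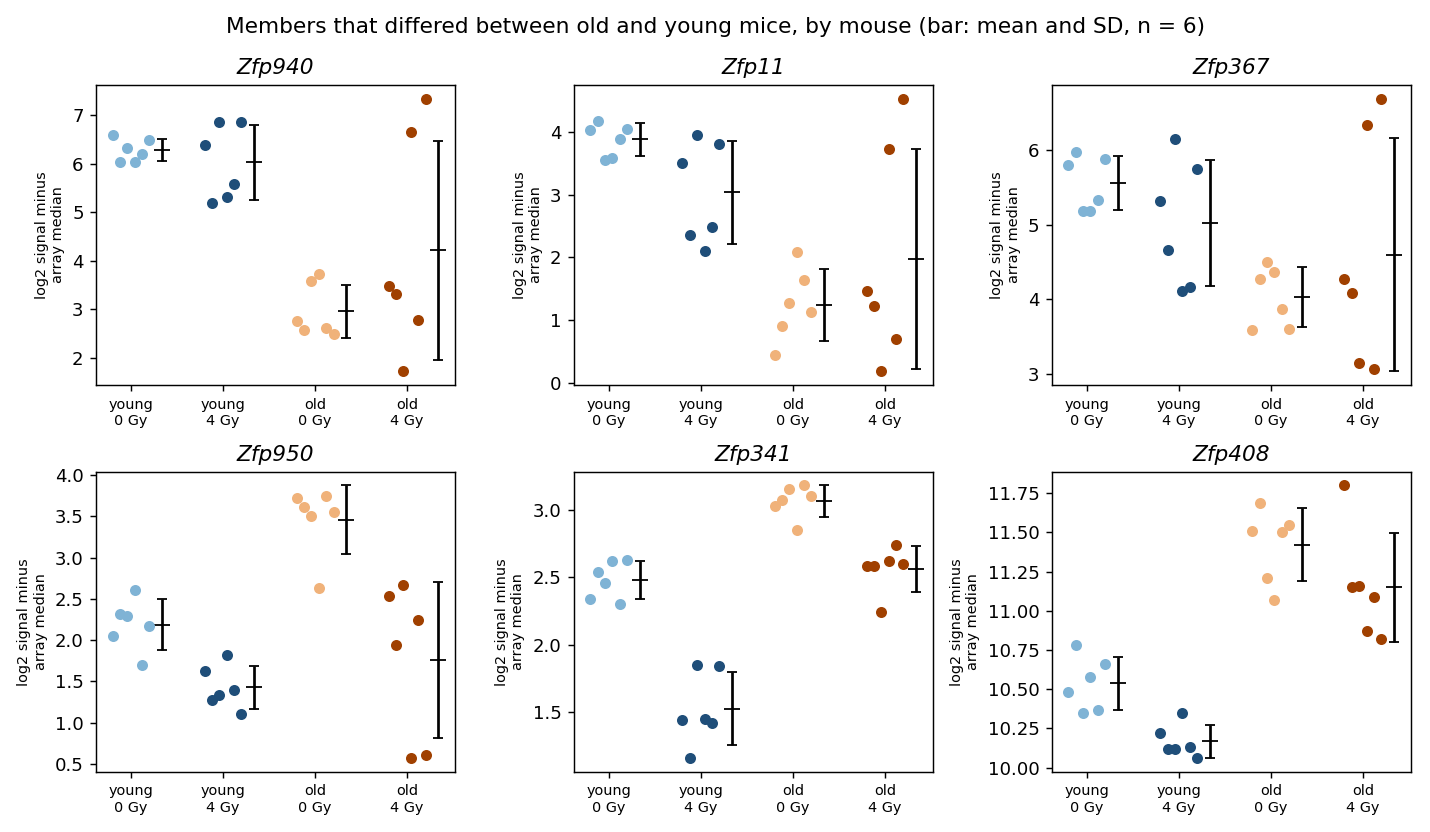
Level of Zfp940, Zfp11, Zfp367, Zfp950, Zfp341 and Zfp408 in each mouse (log2 signal minus array median) in the 4 groups of 6; points are mice, the black bar is the mean with its SD. Zfp940, Zfp11 and Zfp367 are low in old mice except for 2 old irradiated arrays, replicates 4 and 6, which reach 7.34, 4.53 and 6.69; the axes differ between panels.

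The largest positive differences with age were those of Zfp950 (1.27, adjusted p = 0.000129), Zfp52 (1.19, adjusted p = 2.23e-05), Zfp1 (1.14, adjusted p = 0.000322), Zfp106 (1.08, adjusted p = 2.9e-05), Zfp937 (1.08, adjusted p = 0.000492) and Zfp687 (1.06, adjusted p = 2.33e-05) by limma, each beside the 0.70 of the detected genes. Zfp950 was at 1.70 to 2.61 in young and 2.63 to 3.75 in old unirradiated mice. Zfp52 was at 1.49 to 2.15 and 2.87 to 3.41. Neither gene overlapped between the ages, while Zfp1, at 4.25 to 4.84 and 4.77 to 6.11, did. In the deposited log2 table none of the 6 passed, with differences of 0.42 to 0.88.

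On the array-median scale, where 48.3% of all genes tested and 61.9% of detected genes were higher, all 7 tested members of the RNA and ribosome list, 6 of 7 of the promoter and chromatin list and 3 of 5 of the silencers were higher in old unirradiated mice and none lower, with medians of 0.84, 0.75 and 0.56. Zfp57 (-0.04) and Zfp609 (-0.34) did not pass. Of the KRAB co-repressor genes 20 of 30 were higher, and of the AU-rich element genes 18 of 23. Under the 4 other scalings, 0 or 1 of the 2 to 6 RNA and ribosome members tested were higher and 0 lower. Of the 3 to 7 promoter and chromatin members tested, 0 were higher and 1 was lower under each. Of the 3 to 5 silencers tested, 0 or 1 were higher and 2 were lower under each. Among all genes tested under these scalings 4.44% to 16.1% were higher and 21.5% to 29.0% lower. The summed neutrophil markers were 2.34 to 7.18 times the young unirradiated median in old unirradiated mice, against 0.646 to 1.51 in young ones, and their part in these differences was not tested.

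Between irradiated old and irradiated young mice, 2 members differed, both higher in old mice, or 1.64%, where 2.0% of all genes tested and 1.73% of detected genes passed, 1.4% of all genes higher and 0.601% lower. The groups did not overlap for 6 members, all higher in old mice (4.45% of all genes, and 0.613% lower). Zfp341, which drives transcription of Stat3, was at 1.16, 1.45 and 1.85 (lowest, median, highest) in young irradiated and 2.24, 2.59 and 2.74 in old irradiated mice, a difference of 1.03 (SE 0.221, adjusted p = 0.0374) by limma. Zfp408, a gene of inherited retinal disease, was at 10.06, 10.13 and 10.35 and at 10.82, 11.12 and 11.80, a difference of 0.98 (SE 0.23, adjusted p = 0.0476). Neither overlapped between the ages, also in unirradiated mice. Neither passed under any of the 4 other scalings or with the replicate number as a block, where 0 members passed, and under those scalings the median over the members was 0.02 to 0.10 in place of 0.29. Leaving out old irradiated replicates 4 and 6 gave 47 higher and 4 lower members, with a median of 0.59 over the members and 0.42 over the detected genes. The share of all genes that passed in that fit is not given here. Leaving out 1 array at a time gave 0 members for each young irradiated array and for old irradiated replicates 1, 2 and 5, and 1 for replicate 3.

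The 5 members with the lowest p for a different response in the 2 ages did not pass after adjustment. Zfp579 was at -0.67 in young and 0.25 in old mice, an interaction of 0.91 (SE 0.253, adjusted p = 0.11), and Zfp648 at -0.91 and 1.16, an interaction of 2.07 (SE 0.587, adjusted p = 0.113). Zfp358 was at -0.04 and -0.87, and Zfp995 at -0.12 and -1.23 (adjusted p = 0.144 and 0.146), with Zfp318 the fifth. Without the old irradiated replicates 2, 3 and 5, in which hepatocyte transcripts were high, 43 members passed (15 positive and 28 negative), in a fit in which replicates 4 and 6 made up most of that group. The share of all genes that passed in that fit is not given here, so the count does not set the members apart from other genes. Without old irradiated replicates 4 and 6, 0 members passed.

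Base composition of the probe ran with some of these differences. The probes held 4 to 37 C among their 60 bases, with a median of 12. Across the 135 members, which share arrays and labelling, Spearman's rho between the number of C and the difference was -0.29 for old against young unirradiated mice, 0.39 for the response in old mice and 0.13 for that in young mice. Over the 11353 detected genes it was -0.28, 0.22 and -0.04. It was 0.40 for the members, and 0.32 for the detected genes, when old irradiated replicates 4 and 6 were set against the other 4. The 57 members with 4 to 11 C had a median difference of -1.88 between replicates 4 and 6 and the old unirradiated mice, and the 45 members with 14 to 37 C one of -0.07. Without those arrays the medians in old mice were -0.62 and -0.37, and in young mice both were -0.43. Of the 8 members that were lower in old mice, the probes of Zfp574, Zfp367, Zfp648, Zfp940, Zfp11 and Zfp846 hold 21, 18, 18, 17, 16 and 14 C, and those of Zfp282 and Zfp703 hold 12 and 10. That of Zfp318 holds 13 and that of Zfp1 10, and what lies behind the relation was not tested.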

How the data were processed

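Blood RNA of 24 mice was measured on 1-colour Agilent Mouse Gene Expression 4 x 44K v2 arrays. The intensity values that the authors deposited for each array came from Agilent Feature Extraction 12.0.2 (submitters' processing notes), which subtracts background, removes spatial trends and does not scale arrays to each other. The flags deposited with them (well above background, positive and significant, non-uniform, saturated) carry no unit. The authors' deposited log2 table holds filtered, normalized values of 119 of the members, with column medians from 5.77 to 6.73, and was used as an alternative.

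Spots marked non-uniform were left out, and each array's log2 signals were centred on the median of its 43020 non-control spots. A probe with repeat spots was taken as well above background where at least 50% of them were, which leaves out Zfp84. Probes that failed either the uniformity or the significance flag on a share of 0.25 or more of the arrays were dropped (24121 of 39429 remained), each gene was given its probe with the highest mean (18729 genes), and genes that strayed 1.5-fold from their median on fewer than 5 arrays (20%) were not tested, which left 17464. Comparisons used limma 3.58.1 in R 4.3.3, two-sided, over 12 arrays each and 24 for the interaction. The scripts were tested on simulated data. Summaries used Python 3.11.15 with pandas 2.3.3 and SciPy 1.17.1. Precision for dim genes depends on how far an array's signal stood above background.

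The numbers within groups name mice and do not pair them. Very similar arrays (young irradiated replicates 2 and 5, old unirradiated replicates 1 and 6) were kept as separate mice. The robust SD of the difference between the arrays was 0.147 and 0.149 for these pairs. Repeat spots within an array had a median SD of 0.0598 to 0.105. That is the spread of single spots and not of a difference, so it cannot show that these arrays differ by more than repeats. Genes were named by rule: the 6 largest rises and falls past the threshold in each comparison, the 5 lowest interaction p, members on the role lists, members with probes of opposite direction, up to 5 genes on 23 arrays, and up to 6 genes past the threshold at both ages from each of the KRAB and AU-rich lists. Zfp703 and Zfp282 were added after their values were seen, to complete a count, and Ehmt2 and Daxx to show genes of a list that did not fall. The members, lists and comparisons were chosen with earlier results of these data known. The lists were written by hand, 1 B cell marker is not reported here, and sets of similar arrays were left out after seeing the data. Probe sequences and positions (mm9) are as deposited, and RefSeq was used for names and gene order.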

Additional observations from a re-analysis of the deposited data

Results flagged for a closer look

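Among the 26 members named by the rule on the size of their difference and the medians per array, 108 groups of 6 mice were examined for a mouse whose gap to its nearest neighbour exceeded Dixon's 95% critical value as a share of the range of the group, which chance gives in about 5% of groups. The gap was larger in 11 groups. Young irradiated replicate 4, the array with the highest summed hepatocyte markers (224 times the young unirradiated median), gave 4 of them. It was at 5.39 for Zfp664 (6.94 to 7.44 in the other 5 mice), 3.77 for Zfp358 (2.62 to 3.03), 2.67 for Zfp653 (1.64 to 1.99) and 6.06 for Zfp995 (4.67 to 5.05). Old unirradiated replicate 4 gave 3, at 4.56 for Zfp318 (5.22 to 5.58), 3.15 for Zfp653 (3.84 to 4.05) and 2.63 for Zfp950 (3.50 to 3.75).

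The others were Zfp52 at 1.49 in young unirradiated replicate 1 (2.03 to 2.15 in the other mice) and Zfp316 at 4.79 in young unirradiated replicate 4 (5.35 to 5.61). In old irradiated mice Zfp341 was at 2.24 in replicate 3 (2.58 to 2.74) and Zfp408 at 11.80 in replicate 1 (10.82 to 11.16).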

How the results depend on the processing

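Each comparison was recomputed under the other scalings, background corrections, filters and fits, and with each array left out. The signs of the median difference of the members held under all of them, and relative to detected genes those for irradiation held too. Relative to detected genes the median in unirradiated old against young mice (0.01) was -0.04 with normexp, 0.08 in the deposited log2 table and -0.01 to 0.03 with 1 array left out. In irradiated old against young mice (-0.04) it was 0.09 with quantile normalization, 0.03 with normexp, 0.06 in the deposited table, -0.26 without old irradiated replicates 2, 3 and 5, 0.17 without replicates 4 and 6, and -0.09 to 0.04 with 1 array left out (0.04 without replicate 4 and 0.03 without replicate 6).

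With normexp correction and an offset of 50, which is above the median signal of every array, 1 member passed for irradiation in young mice and 0 in each of the other comparisons, and the median differences were -0.09 in young, -0.12 in old (-0.33 relative to detected genes) and 0.12 in unirradiated old against young mice. From the deposited values 35 members passed in young mice (median -0.66), 22 in old mice (5 rose and 17 fell), 20 for age without irradiation (median 0.15) and 0 with it. With the slide as a block 16 passed in young mice, 2 in old mice (median -0.46, and -0.30 relative to detected genes) and 9 in irradiated old against young mice, and the slide with both treatments alone gave the same medians in old mice, -0.46 and -0.30. With 1 fit of all 24 arrays 73 passed in old mice, 44 for age without irradiation and 12 with it. With the median of detected probes as the scale 27 passed in old mice (median -0.47) and 19 for age (median 0.12), with the 75th percentile 20 (median 0.19) and with quantile normalization 24 (median 0.17) for age, and 0 in irradiated old against young mice under these 3 scalings.

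Without old irradiated replicates 2, 3 and 5 the median in old mice was -1.21 (-0.90 relative to detected genes), 5 members passed in irradiated old against young mice and 43 for the interaction. Without replicates 4 and 6 the relative median in old mice was -0.23 and 51 members passed in irradiated old against young mice. Counting very similar arrays once gave 30 in old mice and 0 in irradiated old against young mice. These last 2 settings were chosen after seeing the data. Counts of members in this section stand without the share of all genes, and so do not set the members apart from other genes. With each array left out in turn, 46 to 61 members passed in young mice, 30 to 48 in old mice (30 without old unirradiated replicate 6), 85 to 97 for age without irradiation, 0 to 2 with it and 0 to 2 for the interaction (2 without old irradiated replicate 3). The medians were -0.51 to -0.40, -0.95 to -0.66, 0.66 to 0.76 and 0.22 to 0.40, and relative to detected genes -0.32 to -0.26 in young and -0.64 to -0.37 in old mice.

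Same-numbered mice did not deviate together (correlations of -0.64 to 0.53 over detected genes, and at most 2 of 6 numbers correlated best with their own). With the replicate number as a block 40 members passed in young and 33 in old mice, 84 for age without irradiation and 0 with it. For single members, 241 of 1740 recomputed values no longer passed, 7 newly passed and 4 turned in sign. These were Zfp622 in young mice with normexp (0.02), Zfp207 (-0.14, deposited table) and Zfp932 (-0.03, median of detected probes) for age without irradiation, and the interaction of Zfp318 in the deposited table (0.37).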
